A study of Rattus norvegicus with 3 samples.

Results

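This report describes 10 genes of the hypoxia response and of blood vessel growth in cultured rat granulosa cells: the hypoxia-inducible factor subunit genes Hif1a and Epas1, the vascular endothelial growth factor genes Vegfa, Vegfb and Vegfc, and Angptl4, Adm, Fgf2, Edn1 and Thbs1. They were taken as a list of gene symbols, and every probe set that the platform annotation gave to a listed symbol alone was used. This gave 11 probe sets for 9 of the 10 genes, out of 31099 probe sets and 14218 named genes on the array. No probe set carried the name Thbs1 alone, so the gene for thrombospondin 1, an inhibitor of vessel growth, was not analysed here. The cells came from immature female Sprague-Dawley rats of 24 to 25 days, 48 h after they were given PMSG, a gonadotropin from pregnant mares that brings follicles to the preovulatory stage. All cultures received an adenovirus at 50 pfu per cell. The control array (Ad-GFP) held cells with a virus for green fluorescent protein and no stimulus. The array Ad-GFP+FSK/PMA held cells with the same virus, treated for 6 h with 10 uM forskolin, which activates adenylyl cyclase, and 20 nM phorbol 12-myristate 13-acetate, which activates protein kinase C. The array Ad-NFIL3+FSK/PMA held cells with a virus for the transcriptional repressor NFIL3 and the same stimulus, which began 24 h after infection. Per the labels, the stimulus stands in for the action of human chorionic gonadotropin. There was 1 Affymetrix array for each of the 3 groups, hybridised with RNA pooled from 3 experiments, so no p-value can be given and no difference has a replicate check.

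The hypoxia-inducible factors are dimers of an oxygen-regulated alpha subunit (HIF-1 alpha or EPAS1, also called HIF-2 alpha) and ARNT. When oxygen is present, prolyl hydroxylases (the Egln genes) mark the alpha subunit for the VHL ubiquitin ligase, so that much of the control lies in protein stability, which an mRNA array does not measure. The factors drive genes of glucose use, of survival and of vessel growth, Vegfa above all. The granulosa layer of a preovulatory follicle has no blood vessels, and VEGF from these cells is known for its part in the growth of vessels into the forming corpus luteum.

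The unit of all values is the MAS5 signal, a linear intensity per probe set. A floor was set at 126, the median of all signals on the 3 arrays, and anything dimmer was treated as unmeasured and raised to it. A gene is represented by its brightest probe set, and a difference is called when it is at least 2-fold. On each array 48.1% to 51.8% of probe sets exceeded it. Signals are given in the order control, FSK/PMA, NFIL3 throughout. Nfil3 itself was at 564, 1321 and 5882. All 10 granulosa cell markers on the array, such as Foxl2 and Inha, were above the floor on some array, and their summed signal was 122411, 84363 and 52512. Of 10 endothelial markers, 8 were below the floor on all arrays, Pecam1, Vwf, Tek and Tie1 among them, and the summed signal of the list was between 661 and 817. Of 9 theca and stroma markers 6 were above it on some array, with sums of 4366, 2540 and 3292, as were 6 of 9 leukocyte markers (2321, 3135 and 3407), 3 of 7 pericyte markers (597, 485 and 578) and 1 of 5 oocyte markers (967, 575 and 430). Of 3 red cell markers 2 were above it, with sums of 20012, 18446 and 15760, nearly all from the haemoglobin gene Hbb. The sums take signals below the floor as they are, so those of the endothelial and pericyte lists hold much signal from unmeasured genes. Bulk RNA cannot tell fewer cells of a type from less RNA per cell. Relative to the control array, the 9 spiked hybridisation controls were brighter by 1.40 times with FSK/PMA and by 1.46 times with NFIL3. The 3' to 5' ratio of beta-actin, a measure of RNA integrity, was 2.61, 3.80 and 3.08. That of hexokinase was 3.21, 5.04 and 2.98, and that of GAPDH was 1.28, 1.15 and 1.14. From the disagreement of probe sets of the same gene, the robust SD of a log2 difference was 0.36 for FSK/PMA against control and 0.24 for NFIL3 against GFP virus; this leaves out differences between cultures.

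The first comparison set Ad-GFP+FSK/PMA against Ad-GFP and asked how these genes differ after the ovulatory stimulus. Vegfa was 5.40-fold higher, Vegfc was 2.00-fold higher and Vegfb was 2.00-fold lower, so that 3 ligands of the same family differed in size and direction. Hif1a and Epas1 were 1.37-fold and 1.65-fold higher, and Angptl4 was 1.90-fold lower. Of the 9 genes with a probe set, 6 were measured, and Adm, Fgf2 and Edn1 were below the floor on all 3 arrays. Of the 6, 1 (Vegfa) was called higher and 1 (Vegfb) was called lower. Among all 9395 measured genes 7.43% were called higher and 11.4% lower. The 6 genes had a median log2 difference of 0.59, against -0.10 over all measured genes.

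Vegfa encodes VEGF-A, the main growth factor of blood vessels. Its probe set 1373807_at read 550 without stimulus, 2970 with FSK/PMA and 1801 when NFIL3 was added to FSK/PMA. The control array was thus lowest and the FSK/PMA array highest. The dimmer probe set 1370081_a_at ran in the same order, with signals of 130, 728 and 381. The difference with FSK/PMA was 2.43 on the log2 scale for the first probe set and 2.48 for the second. Of the 9395 measured genes, 91 (0.969%) were further raised.

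Vegfc encodes VEGF-C, known mainly as a growth factor of lymphatic vessels. Its signals were 786, 1571 and 1022, so that its 3 arrays stood in the same order as those of Vegfa. Its fold of 1.9989 with FSK/PMA lay just under the limit for a call. Vegfb encodes VEGF-B, a ligand of the receptor FLT1. It had signals of 597, 298 and 310, with the control array alone high. Its fold of 2.0007 lay just past the limit, so that neither of these genes should be read as differing from the other in being called. When arrays were scaled to their median, by quantile normalisation or by cyclic loess, Vegfc was called (log2 differences of 1.14, 1.04 and 1.05) and Vegfb was not (-0.86, -0.84 and -0.82). Scaling to the spiked controls was added once the data had been seen; the median of all measured genes moved from -0.10 to -0.54 under it. The differences then were 1.95 for Vegfa, 0.52 for Vegfc and -1.48 for Vegfb.

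**Figure D1:**
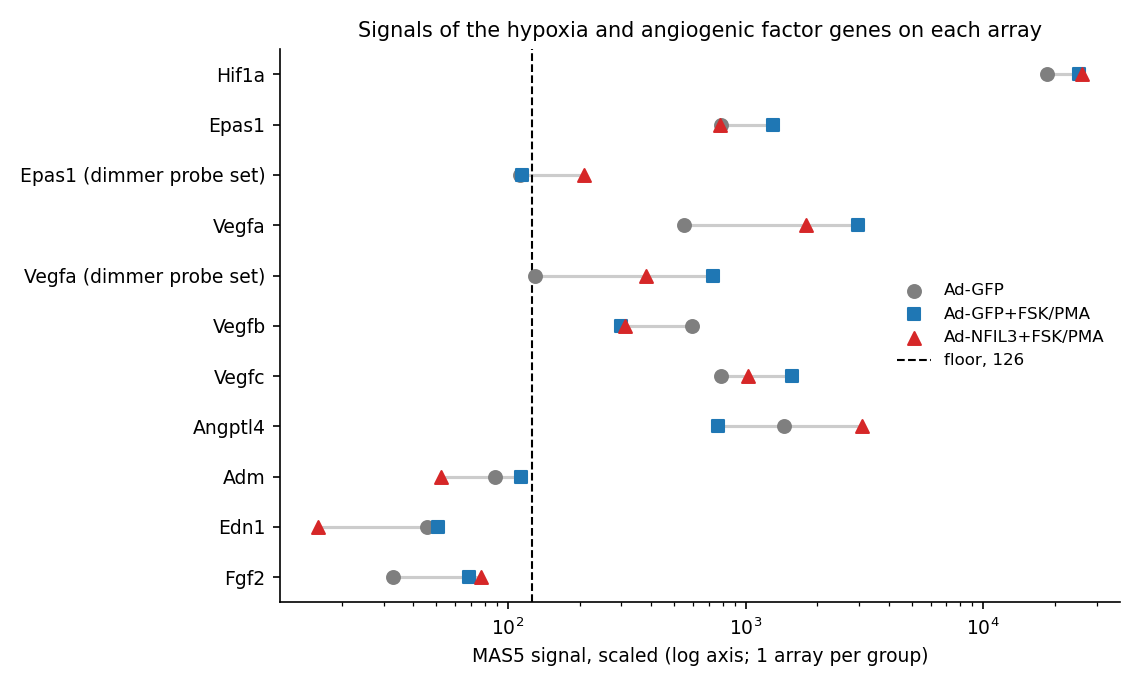
MAS5 signal (log axis) of each probe set of the 9 genes on the control array (circles), the FSK/PMA array (squares) and the NFIL3 array (triangles), with 1 array per group; the dashed line is the floor of 126. Both Vegfa probe sets were lowest on the control array, Angptl4 was highest on the NFIL3 array at 3085, and Adm, Edn1 and Fgf2 lay left of the floor on every array.

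To show the regulatory sequence next to these genes, promoter windows of 300 bases (250 before and 50 after the transcription start) are given from RefSeq, build GRCr8, on the strand of the gene. All 10 genes matched, with 11 windows, since Vegfa has 2. The 3 VEGF ligands and Angptl4 are shown because their differences set the results. Capitals mark the core of the hypoxia response element, which was searched as ACGTG and, in its second form, as GCGTG, both on either strand. The windows lie at chr9:22452604-22452903 (Vegfa, the first of its windows, plus strand), chr16:44560838-44561137 (Vegfc, minus strand), chr1:213607103-213607402 (Vegfb, minus strand) and chr7:15258632-15258931 (Angptl4, minus strand).
Vegfa: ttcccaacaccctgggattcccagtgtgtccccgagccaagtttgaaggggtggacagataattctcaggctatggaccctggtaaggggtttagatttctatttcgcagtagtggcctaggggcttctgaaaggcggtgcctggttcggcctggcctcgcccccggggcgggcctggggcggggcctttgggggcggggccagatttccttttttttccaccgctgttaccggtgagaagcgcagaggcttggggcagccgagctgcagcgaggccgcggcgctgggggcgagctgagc
Vegfc: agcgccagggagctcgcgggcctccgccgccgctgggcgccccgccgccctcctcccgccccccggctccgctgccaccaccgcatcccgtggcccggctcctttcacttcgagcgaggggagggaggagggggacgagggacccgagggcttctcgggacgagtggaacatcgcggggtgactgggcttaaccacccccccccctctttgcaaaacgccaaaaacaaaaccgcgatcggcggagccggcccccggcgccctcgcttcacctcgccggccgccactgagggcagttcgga
Vegfb: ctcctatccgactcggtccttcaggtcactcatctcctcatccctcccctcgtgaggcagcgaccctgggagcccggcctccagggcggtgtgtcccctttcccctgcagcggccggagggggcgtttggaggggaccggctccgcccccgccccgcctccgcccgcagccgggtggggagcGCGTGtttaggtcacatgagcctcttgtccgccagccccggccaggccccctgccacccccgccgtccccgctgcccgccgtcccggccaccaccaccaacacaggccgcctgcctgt
Angptl4: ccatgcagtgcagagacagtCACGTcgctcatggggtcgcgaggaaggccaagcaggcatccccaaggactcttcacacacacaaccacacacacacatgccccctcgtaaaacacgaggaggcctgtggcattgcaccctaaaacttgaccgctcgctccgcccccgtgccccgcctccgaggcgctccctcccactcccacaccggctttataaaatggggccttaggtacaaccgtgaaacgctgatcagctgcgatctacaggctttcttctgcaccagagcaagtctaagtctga

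The printed Vegfb window held GCGTG, starting 68 bases before the transcription start. That of Angptl4 held ACGTG on the opposite strand, starting 230 bases before it. Both windows of Vegfa and that of Vegfc held neither core. Over the 10 genes, 5 had a window with a core (Vegfb, Hif1a, Angptl4, Fgf2 and Edn1), and 41.6% of 33469 promoter windows of this length did. The sites TTACGTAA and TTATGTAA, which NFIL3 and the related PAR bZIP factors bind, were in none of the 11 windows, and are in 0.12% and 0.893% of all windows. The full cAMP response element TGACGTCA was also in none of them, against 1.83% of all windows; its shorter form TGACG was in the Fgf2 window alone, against 21.2%. The E-box CACGTG contains the first form of the core; the Hif1a window held it, as 6.42% of windows do. A match is a description of letters, and a site outside these windows would not be seen.

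VEGF acts through the receptor kinases FLT1, KDR and FLT4, with the neuropilins as coreceptors. In the list of 10 ligands and receptors, 6 were measured. With FSK/PMA 1 was called higher and 2 lower, the third being Nrp1. Over all measured genes 7.43% were called higher and 11.4% lower. Nrp1, a coreceptor for VEGF-A and for semaphorins, had signals of 556, 233 and 352. It was 2.38-fold lower with FSK/PMA, and its dimmer probe set differed by -1.30 on the log2 scale. Nrp2, a coreceptor with a role in lymphatic vessels, had signals of 128, 208 and 461, highest on the NFIL3 array. It differed by 0.70 with FSK/PMA. Kdr, the main signalling receptor of VEGF-A on endothelium, stood near the floor at 190, 180 and 138. Flt1, Flt4, and the ligand genes Pgf and Vegfd were below the floor on every array.

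Hif1a had signals of 18539, 25354 and 25936, with the control array lowest and the other arrays close together. Its log2 difference of 0.45 with FSK/PMA was 0.20 with quantile normalisation, 0.15 with cyclic loess and -0.03 when arrays were scaled to the spiked controls, so its direction was not stable. Epas1 had signals of 790, 1301 and 779 on its brighter probe set 1398333_at. The FSK/PMA array alone was high. Its dimmer probe set 1369703_at had 112 and 115 on the Ad-GFP arrays, below the floor, and so gives no fold for FSK/PMA. With FSK/PMA 7.43% of all measured genes were called higher and 11.4% lower. Of the 12 listed subunits and regulators of the hypoxia-inducible factors, 9 were measured and 0 were called in either direction. Their median was 0.24, against -0.10 over all genes, and -0.15 against -0.54 when arrays were scaled to the spiked controls. Cited2, which competes with HIF-1 alpha for its coactivator, differed by 0.88. Vhl, the substrate recognition subunit of the ligase that degrades HIF alpha, differed by 0.79, and Egln1, the main prolyl hydroxylase, by -0.72. Arnt2 had 179 on the control array and was below the floor on the others, at least 1.42-fold lower. Arnt, the shared partner, was near the floor at 118, 149 and 212, and Egln3 and Hif3a were below it throughout.

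Angptl4 encodes a secreted inhibitor of lipoprotein lipase that is induced by hypoxia, fasting and PPAR ligands and also acts on vessels. It read 1454 without stimulus, 766 with FSK/PMA and 3085 when NFIL3 was added. The NFIL3 array was highest and the FSK/PMA array lowest, an order that none of the other 5 measured genes had. Genes of the wider lists had that order too, such as Bnip3 (2240, 1716 and 2616), Ucp2 (1835, 1248 and 1869) and Axl (9143, 6617 and 11257). Angptl4 differed by -0.92 with FSK/PMA, and 13.0% of measured genes went below that. With arrays scaled to the spiked controls Angptl4 differed by -1.41 and was called. Lpl, lipoprotein lipase, the enzyme it inhibits, was 2.08-fold higher with FSK/PMA, with signals of 145, 303 and 421. Angptl2, a related secreted protein, had 122, 195 and 392 and was at least 1.55-fold higher with FSK/PMA.

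Adm, Fgf2 and Edn1 could not be measured. Adm, the precursor of the vasodilator adrenomedullin, had signals of 87.9, 113 and 52.0. Fgf2, a growth factor of endothelium and many other cells, had 32.7, 68.2 and 77.2, and Edn1, the precursor of the vasoconstrictor endothelin 1, had 45.4, 50.9 and 15.9. All of these lie under the floor of 126, so no fold is given. For the lists that follow, 7.43% of all measured genes were called higher with FSK/PMA and 11.4% lower. In the adrenomedullin list, 2 of 8 genes on the array were measured and 0 were called, and the receptor gene Calcrl with Ramp2 and Ramp3 was below the floor. Ramp1, which turns that receptor into one for calcitonin gene-related peptide, differed by -0.64 with FSK/PMA, and Crcp by -0.46. In the endothelin list 4 of 5 genes were measured and 1 was called: Edn2, endothelin 2, was at least 3.14-fold higher, with signals of 69.5, 395 and 417. Ece1, which cuts endothelin precursors, was 1.86-fold lower. Ecel1 read 11.5 on the control array, below the floor, and 150 with FSK/PMA, and was at least 1.19-fold higher. Ece2 read 133 and then just under the floor, so its fold is only a bound, at least 1.05-fold lower. Of 14 FGF ligands and receptors 4 were measured and 1 was called. Fgfr2, a receptor kinase, was 6.74-fold lower, with signals of 1507, 224 and 217, and a dimmer probe set read 201 on the control array and was below the floor on the others. Fgf9 differed by -0.79 and Fgfr1 by 0.31. Fgfr3 read 87.7 on the control array, below the floor, and 127 after the stimulus, which is higher by at least 1.01-fold. Of the thrombospondin list 3 genes were measured and 0 called. Thbs3 differed by -0.21 and the receptor gene Cd47 by 0.06, with a dimmer probe set at -0.89. The receptor gene Cd36 read 76.8 on the control array, below the floor, and 131 with FSK/PMA, so that its fold is only a bound, at least 1.04-fold higher.

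Among 33 hypoxia-inducible target genes on the array, 29 were measured. With FSK/PMA 6 were called higher and 2 lower, against 7.43% and 11.4% of all measured genes. The median was 0.13, against -0.10 over all genes. Ndrg1, a stress-induced gene of growth arrest, was 8.40-fold higher, with signals of 155, 1306 and 1503, the first near the floor. A dimmer probe set of Ndrg1 had 15.8, 262 and 383, a log2 difference of at least 1.06. Pfkfb3, which makes the main activator of phosphofructokinase, was 4.70-fold higher, with 140, 658 and 306. Slc2a1, the glucose transporter GLUT1, was 3.87-fold higher, with 801, 3098 and 3539. Ddit4, an inhibitor of mTORC1, was 2.35-fold higher, Higd1a, a mitochondrial protein gene, was 2.23-fold higher, and Bhlhe40, a transcriptional repressor gene of the clock, was 2.03-fold higher. The called lower genes were Mxi1, a MYC antagonist, at 2.61-fold and Lox, the collagen cross-linking lysyl oxidase, at 2.10-fold. A dimmer probe set of Mxi1 differed by -0.54. Of other glycolytic targets, Hk2, hexokinase 2, was at least 1.78-fold higher, with 5.43 on the control array and 224 and 320 on the others. Pgk1 differed by 0.55, Ldha by 0.57, Eno1 by 0.42 and Aldoa by -0.30. With arrays scaled to the spiked controls 3 of the 29 were called higher and 7 lower, with a median of -0.24 against -0.54. Over all measured genes, too, fewer were called higher and more lower under this scaling, with counts given further below.

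Of the angiopoietins and Tie receptors, Angpt2 alone was measured. It encodes a ligand that loosens vessel walls, and was at least 4.16-fold lower with FSK/PMA, with signals of 524, 91.4 and 80.3. Among 19 other factors of vessel growth on the array, 13 were measured. Of these, 3 were called higher and 3 lower, against 7.43% and 11.4% of all measured genes. The median was -0.39, against -0.10 over all genes. Tgfb1, a cytokine gene, was 6.16-fold higher, Col18a1, the source of the vessel growth inhibitor endostatin, was 5.05-fold higher, and the Notch ligand gene Jag1 was 2.05-fold higher. Ephb4, a receptor kinase of venous endothelium, was 3.72-fold lower, Apln, the peptide ligand apelin, was 3.50-fold lower, and Ccn2, a matrix-associated growth factor gene, was 2.50-fold lower. Of 26 called genes over all lists in this comparison, those of the VEGF family included, 0 changed sign under 4 other scalings and 17 were called in all of them.

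**Figure D2:**
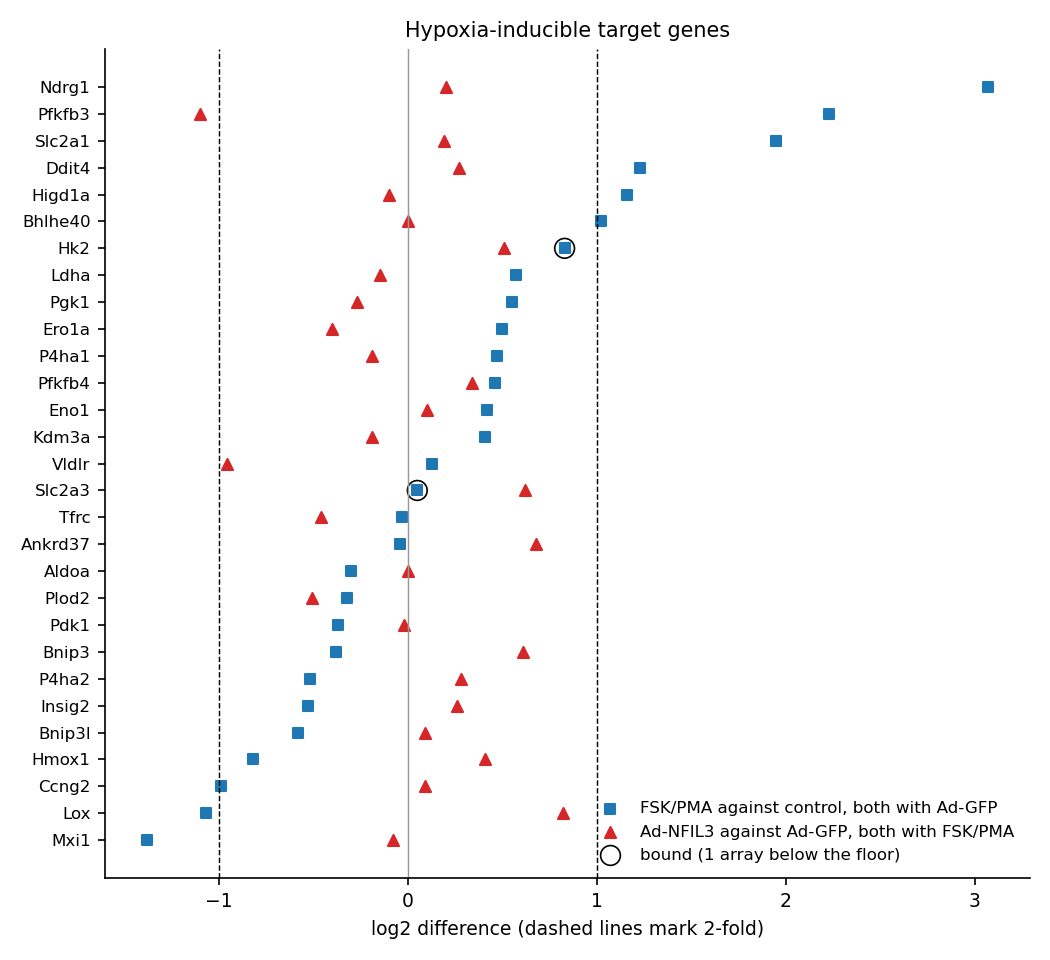
Log2 differences of the 29 measured hypoxia-inducible target genes, in order of the FSK/PMA difference (squares), with the NFIL3 difference of the same gene (triangles); circled squares are bounds, and dashed lines mark 2-fold. With FSK/PMA 6 genes lie right of the upper line and 2 left of the lower, and with NFIL3 only Pfkfb3 lies past a line.

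The second comparison set Ad-NFIL3+FSK/PMA against Ad-GFP+FSK/PMA and asked how these genes differ when NFIL3 is overexpressed in stimulated cells. Both comparisons share the Ad-GFP+FSK/PMA array, so an error on it moves them in opposite directions. Angptl4 was 4.03-fold higher on the NFIL3 array. Vegfa was 1.65-fold and Vegfc 1.54-fold lower, both within 2-fold, the probe sets of Epas1 disagreed in direction, and Vegfb and Hif1a differed by 0.05 and 0.03 on the log2 scale. Of the 6 measured genes 1 was called higher and 0 lower. Among all 9397 measured genes 1.34% were called higher and 0.958% lower. The median of the 6 was -0.29, against 0.03 over all genes, and became 0.01 when the probe sets of each gene were averaged.

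The Angptl4 difference of 2.01 was exceeded by 4 of the 9397 measured genes, and was between 1.77 and 2.01 over all settings tried. Against the unstimulated control array, Angptl4 was 2.12-fold higher on the NFIL3 array. The gene had 1 probe set, so no second one checks the value. In its family list 4 genes were measured. Of these, 2 were called higher and 0 lower, against 1.34% and 0.958% of all measured genes. Angptl2 was 2.01-fold higher, just past the limit, and was not called under any of 4 other scalings, where its lowest value was 0.77. Lpl differed by 0.48, and Angptl6, below the floor on the FSK/PMA array, was at least 1.02-fold higher. The summed granulosa markers were lower on the NFIL3 array than on the FSK/PMA array (52512 against 84363). Most of that sum came from Inha (18604 against 29911), Inhba (8520 against 21912) and Gja1 (18091 against 22929). Of the 10 granulosa markers 3 were called lower, 0 higher and 7 were within 2-fold, with a median of -0.32. Over all measured genes 0.958% were called lower and 1.34% higher. The summed theca and stroma markers were higher (3292 against 2540), with Nr2f2 at 1883 against 1579 and Dcn at 481 against 196. Of 5 measured theca and stroma markers 1, Dcn, was called higher and 0 lower. Summed leukocyte (3407 against 3135), endothelial (817 against 661) and pericyte markers (578 against 485) were higher as well. Oocyte (430 against 575) and red cell sums (15760 against 18446) were lower. The part of any marker list in the Angptl4 difference was not tested.

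For Vegfa the dimmer probe set differed by -0.93, against -0.72 for the brighter, and 2.38% of measured genes went further down than the latter. Relative to the control array, Vegfa was 3.27-fold higher on the NFIL3 array and 2.92-fold higher by its dimmer probe set. Vegfc was 1.30-fold higher than on the control array. With median scaling, which moved the median of all genes from 0.03 to -0.20, the differences were -0.96 for Vegfa, -0.86 for Vegfc and -0.98 for Epas1, and none was called. The probe sets of Epas1 went opposite ways. The brighter was 1.67-fold lower and returned to 779, near the 790 of the control array. The dimmer was at least 1.65-fold higher with NFIL3, with a signal of 208. The mean of both gave -0.01, so no direction is given for Epas1 here. Hif1a and Vegfb changed sign between scalings, within -0.20 to 0.13 and -0.18 to 0.05.

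**Figure D3:**
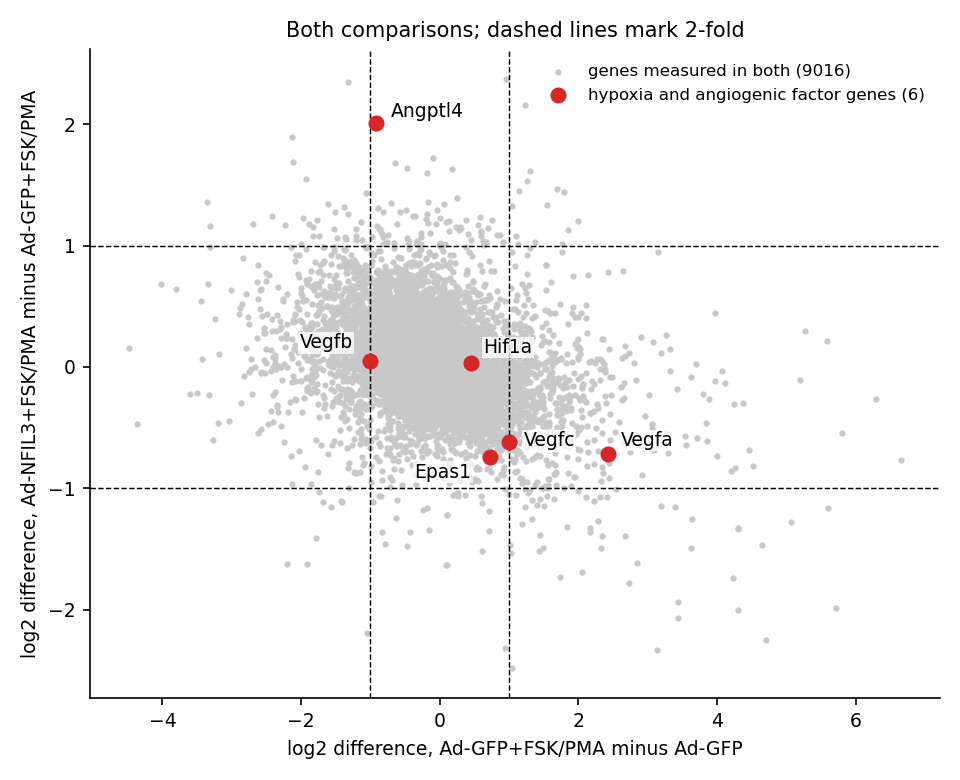
Log2 difference with FSK/PMA (horizontal axis) against log2 difference with NFIL3 (vertical axis) for 9016 genes measured in both comparisons (grey) and the 6 measured hypoxia and angiogenic factor genes (red); dashed lines mark 2-fold. Among the 6 red genes Angptl4 is highest, at 2.01, and Vegfa furthest right, at 2.43. Both axes share the Ad-GFP+FSK/PMA array, and its part in the shape of the cloud was not tested.

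Of 6 measured VEGF ligands and receptors, 1 was called with NFIL3. For this list and those that follow, 1.34% of all measured genes were called higher and 0.958% lower. Nrp2 was 2.21-fold higher, and with median scaling its difference of 0.91 was under the limit. Nrp1 differed by 0.59 and Kdr by -0.38. Of 8 measured HIF subunits and regulators 0 were called, with a median of -0.03. Beside Epas1, Arnt differed by 0.51, Egln2 by 0.24 and Cited2 by -0.16. Siah2, a ubiquitin ligase gene, read 174 with FSK/PMA and was below the floor with NFIL3, at least 1.38-fold lower. In the endothelin list 0 of 3 genes were called, with Ece1 at 0.41, Edn2 at 0.08 and Ecel1 at -0.07. Of the adrenomedullin list Ramp1 differed by 0.79 and Crcp by 0.08. The FGF list had 0 calls, with Fgfr1 at -0.22 and Fgf9 at -0.15, and so had the thrombospondin list, with Cd47 at 0.25 and Cd36 at 0.13.

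Of the 29 hypoxia-inducible target genes 0 were called higher with NFIL3 and 1 lower, against 1.34% and 0.958% of all measured genes. The median was 0.09, against 0.03 over all genes. Pfkfb3 was 2.15-fold lower. Vldlr, a lipoprotein receptor, differed by -0.96, Lox by 0.82 and Ankrd37 by 0.68. Dimmer probe sets of Vldlr differed by -1.15, -0.54 and -0.5, so 1 of them was past 2-fold. Dimmer probe sets of Insig2 and P4ha2 were past 2-fold higher, at 1.1 and 1.08, against 0.26 and 0.28 for the brighter ones. The other 5 targets called higher with FSK/PMA differed by 0.20 (Ndrg1), 0.19 (Slc2a1), 0.27 (Ddit4), -0.10 (Higd1a) and 0.00 (Bhlhe40). Among 11 measured other factors of vessel growth 0 were called higher and 2 lower, against 1.34% and 0.958% of all measured genes. Jag1 was 5.60-fold lower, and Timp3, a metalloproteinase inhibitor that also blocks VEGF binding to KDR, was 2.09-fold lower, with dimmer probe sets at -0.74, -0.80 and -0.09. Pdgfa, a mitogen for vessel wall cells, differed by 0.91 and Ccn2 by -0.83. Of the 6 called genes over all lists, 0 changed sign under the other scalings and 4 were called in all of them.

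For each called gene, the 3 genes with the most similar pair of differences were found by Euclidean distance among 6372 brighter genes. The distance is over 2 differences that share an array. Those nearest to Vegfa were Coq10b (distance 0.071, signals 821, 4480 and 2587), Dusp14 (0.12) and Nfx1 (0.14). Those nearest to Vegfb were Flot1, Mcoln1 and Pkia, at distances of 0.011, 0.011 and 0.013. Angptl4 had no such near neighbours, but only 4 of 9397 measured genes had a larger NFIL3 difference, so few genes could lie near it. Nek6 was closest at 0.43, with signals of 937, 599 and 1917, and Anpep and Ifitm3 followed at 0.53 and 0.59.

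**Figure D4:**
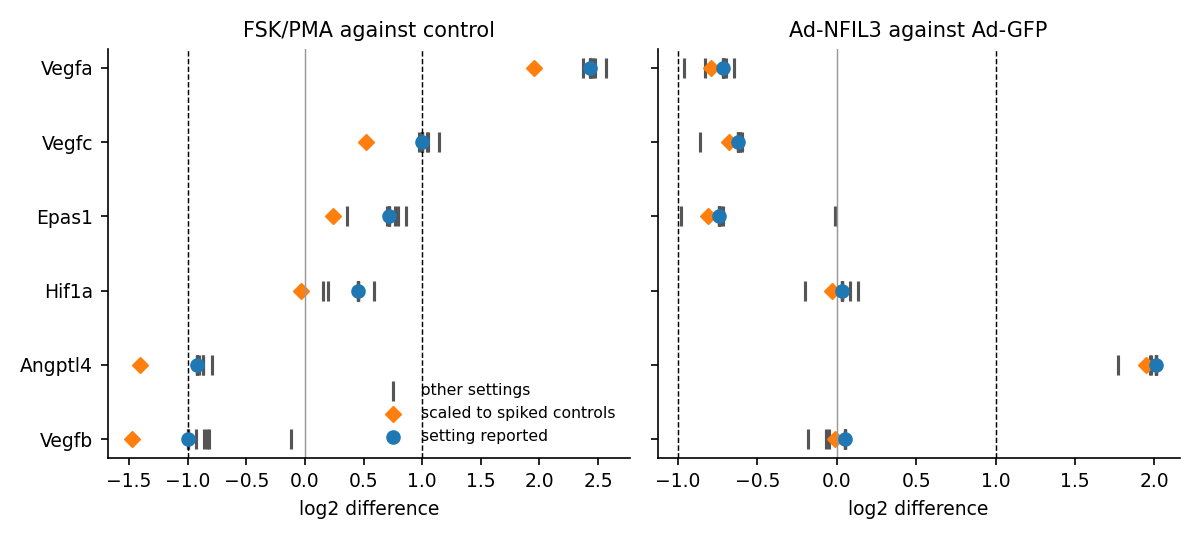
Log2 difference of each measured gene in the reported setting (circles), with arrays scaled to the spiked controls (diamonds) and under the other settings (ticks), for FSK/PMA (left) and NFIL3 (right); dashed lines mark 2-fold. Vegfa lies past 2-fold with FSK/PMA at every setting (1.95 to 2.57), Angptl4 with NFIL3 at every setting (1.77 to 2.01), and Vegfb and Vegfc lie at the line with FSK/PMA in the reported setting but spread from -1.48 to -0.12 and from 0.52 to 1.14 over the settings.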

How the data were processed

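Total RNA of cultured rat granulosa cells was hybridised to 3 Affymetrix arrays, 1 per group. The authors deposited 1 linear intensity per probe set, made with MAS5 according to the submitters' processing notes (no version given in the sources used here). The 2% trimmed mean of every deposited column was 500. The method subtracts a mismatch estimate, so low intensities are noisy. The number of arrays limits the precision.

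That scaling was kept, and log2 of the deposited intensity was taken after the floor of 126. A gene was measured where at least 1 of 2 arrays was above the floor; where the other was below, the fold is a bound ("at least"). The annotation named 20832 of 31099 probe sets with 1 symbol, 436 with several and 9831 with none; 20764 matched the RefSeq table of GRCr8 by Entrez ID. Of 219 list entries 197 matched. The members and lists were chosen with earlier results of these data known, and support nothing by their choice.

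Named are all members with every probe set, up to 4 genes per list and comparison with the largest differences, all called list genes, and the 3 nearest genes of called members whose signal reached 4 times the floor on some array (provisional LOC and RGD symbols left out). The analysis was repeated under 10 other settings and 1 chosen after the data were seen. Scripts ran in Python 3.11.15 with numpy 2.4.6, pandas 2.3.3 and scipy 1.17.1, and limma 3.58.1 in R 4.3.3 gave quantile and cyclic loess normalisation; they were tested on simulated data.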

Additional observations from a re-analysis of the deposited data

How the results depend on the processing

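No paired analysis was possible because each group had 1 array, and for the same reason no replicate could be left out. A value was taken as unmoved when it shifted by less than the robust SD between probe sets. Over the 6 genes, 46 of 54 alternative values were unmoved with FSK/PMA and 52 of 53 with NFIL3; 1 and 6 had another sign, all of Hif1a or Vegfb. With FSK/PMA 2 members were called as reported. That number was 1 with a floor at the 75th percentile, a pseudocount of 32 without floor or a 3-fold limit. It was 5 with a 1.5-fold limit and 3 with spiked controls. With NFIL3, 1 as reported, it was 4 with a 1.5-fold limit and 2 with a floor at the 25th percentile. Adm was measured at that floor of 46.2, at -1.12 in log2, with a signal of 52.0 on the NFIL3 array. With the pseudocount Adm differed by -0.79. The median of the members with FSK/PMA moved from 0.59 to 0.10 with spiked controls. With NFIL3 it moved from -0.29 to -0.62 with the 75th percentile floor, -0.60 with the pseudocount and 0.01 with the mean of probe sets.

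Over all genes, 698 were called higher and 1072 lower with FSK/PMA. These counts were 420 and 402 with the 75th percentile floor, 1403 and 2259 at 1.5-fold, 285 and 345 at 3-fold and 356 and 2486 with spiked controls. With NFIL3 126 were called higher and 90 lower. These were 48 and 190 with median scaling, 545 and 236 with the 25th and 36 and 48 with the 75th percentile floor, 527 and 315 with the pseudocount, 640 and 399 at 1.5-fold and 13 and 18 at 3-fold. The higher share of called genes with FSK/PMA was 39.4% as reported, 50.1% with median scaling and 12.5% with spiked controls. With NFIL3 it was 58.3%, against 20.2%, 44.8%, 43.8% and 44.9% with median scaling, quantile normalisation, cyclic loess and spiked controls. The cause was not tested. Signals near the floor limit what can be said of Adm, Fgf2, Edn1 and most receptors.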

Other observations

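PPARs are nuclear receptors of fatty acids that are also known to drive Angptl4. Of 13 measured genes on a list of their targets, 2 were called higher and 1 lower with FSK/PMA, and 1, Angptl4 itself, higher with NFIL3. The lipid droplet gene Plin2 was 3.08-fold higher with FSK/PMA, with signals of 3637 (control), 11196 (FSK/PMA) and 11224 (NFIL3). Lpl was 2.08-fold higher and Fabp3, a fatty acid carrier, was 2.53-fold lower. Slc25a20, the mitochondrial carnitine carrier, differed by -0.90. With NFIL3 the largest differences beside Angptl4 were those of Ucp2 (0.58, with signals of 1835, 1248 and 1869), Acadm (-0.51) and Lpl (0.48), and Plin2 and Cpt1a both differed by 0.00. The median of the list was 0.06 with FSK/PMA and 0.00 with NFIL3, against -0.10 and 0.03 over all measured genes. Among all measured genes 7.43% were called higher and 11.4% lower with FSK/PMA, and 1.34% and 0.958% with NFIL3.

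Of 9 measured targets of YAP and SRF, which are factors that respond to cell tension and are known to drive Thbs1 and Edn1 elsewhere, 3 were called lower and 1 higher with FSK/PMA. Amotl2, a YAP inhibitor gene, was 7.43-fold lower, with signals of 1862, 251 and 339. Ccn2 was 2.50-fold and Myl9, a myosin light chain gene, 2.13-fold lower, and Amotl1 was 2.42-fold higher. With NFIL3 0 of 7 were called, and Ccn2 (-0.83), Axl (0.77), Amotl1 (0.56) and Amotl2 (0.44) had the largest differences. The list medians were -0.12 with FSK/PMA and 0.30 with NFIL3, against -0.10 and 0.03 over all measured genes. The shares of all measured genes called are those given beside the PPAR list.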
